A study of Mus musculus with 20 samples.

Results

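The laminin and integrin genes of mouse were followed in the RNA of cultured neurons given NMDA, which activates the glutamate receptors named after it. The members were the genes whose symbol in the RNA table names a laminin chain (Lama, Lamb or Lamc and a digit) or an integrin subunit (Itga or Itgb and its number or letter). They came to 37 of the 21937 genes of the table, namely 11 laminin genes, 18 integrin alpha genes and 8 integrin beta genes. No measured value entered this rule, but the family was picked with earlier results of the same RNA comparison known, so its counts are a description and support nothing by themselves. Day 10 neurons (strain label 159.2) were treated with 200 µM NMDA for 6 h, and control day 10 neurons were given DMSO alone for 6 h, with 2 RNA libraries each. All 4 libraries share the strain label, the stage and the washes in balanced salt solution. The series also holds FAIRE and H3K27ac profiles of progenitors and neurons, 20 libraries in 10 groups in all. Their regions are listed by number and width, so none was tied to a member and they were not used here. The labels do not say whether libraries of 1 group came from separate cultures, and the spread behind each p-value may therefore be technical. Recovered depth was 20149813 and 16833459 reads in the NMDA libraries, against 20127348 and 15008112 in the DMSO libraries. All 16 pan-neuronal markers in the table passed the filter on low values, and their summed level was 206388 and 183009 normalised counts in NMDA libraries, against 213793 and 225926 in DMSO libraries.

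Laminins are secreted proteins of basement membranes, each built of an alpha, a beta and a gamma chain wound together. Integrins are cell surface receptors made of an alpha and a beta subunit, which bind laminins, collagens, fibronectin and other matrix or cell surface ligands and couple them to the actin cytoskeleton. In the nervous system laminins line the pial and vascular surfaces and promote neurite growth, and beta 1 integrins anchor radial glia and take part in axon growth.

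Promoter windows of members that rose are shown first, so that genes that moved together can be compared by sequence. RefSeq (GRCm38.p6) windows matched 23 of the 37 members, and 12 of the 16 members that rose after NMDA. The 5 windows below hold the 250 bases before the annotated start, 5′ to 3′ on the strand of the gene. Lama5 and Lamb1 are shown as laminin genes with matches, Itga5 and Itgb1 as the subunits of the fibronectin receptor, and Lamb2 as a gene that rose as much with no match. Capitals mark matches, on either strand, to 6 motifs: the AP-1 site (TGANTCA), the cyclic AMP response element (TGACGTCA), the GC box bound by Sp1 and KLF factors (GGGCGG), the CCAAT box (CCAAT), the TATA box (TATAAA) and the TEAD site (GGAATG). None of these motifs contains another.
Lama5, chr2:180225860-180226109, minus strand: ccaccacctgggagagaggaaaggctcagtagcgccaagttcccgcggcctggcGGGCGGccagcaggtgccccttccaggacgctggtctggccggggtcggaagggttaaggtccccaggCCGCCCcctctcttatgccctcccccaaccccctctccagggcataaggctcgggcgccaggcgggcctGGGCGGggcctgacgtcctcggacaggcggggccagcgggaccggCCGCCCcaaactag
Lamb1, chr12:31265043-31265292, plus strand: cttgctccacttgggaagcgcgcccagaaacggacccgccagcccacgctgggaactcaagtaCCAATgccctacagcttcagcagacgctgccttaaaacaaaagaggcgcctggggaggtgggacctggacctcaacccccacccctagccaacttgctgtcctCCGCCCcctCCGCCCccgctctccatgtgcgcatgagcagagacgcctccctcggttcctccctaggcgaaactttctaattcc
Itga5, chr15:103366792-103367041, minus strand: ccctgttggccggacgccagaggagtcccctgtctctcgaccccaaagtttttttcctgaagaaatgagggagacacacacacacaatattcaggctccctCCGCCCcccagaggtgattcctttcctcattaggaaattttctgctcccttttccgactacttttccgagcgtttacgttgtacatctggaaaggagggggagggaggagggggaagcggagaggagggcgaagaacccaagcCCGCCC
Itgb1, chr8:128685404-128685653, plus strand: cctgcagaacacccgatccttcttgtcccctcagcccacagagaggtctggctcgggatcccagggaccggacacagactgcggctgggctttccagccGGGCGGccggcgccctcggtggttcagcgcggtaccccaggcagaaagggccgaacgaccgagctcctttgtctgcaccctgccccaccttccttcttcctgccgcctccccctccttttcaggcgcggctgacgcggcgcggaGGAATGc
Lamb2, chr9:108479612-108479861, plus strand: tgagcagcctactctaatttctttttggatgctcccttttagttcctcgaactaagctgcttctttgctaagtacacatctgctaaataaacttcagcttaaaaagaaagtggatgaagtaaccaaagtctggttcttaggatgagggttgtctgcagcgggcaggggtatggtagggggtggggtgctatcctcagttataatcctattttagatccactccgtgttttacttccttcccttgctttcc

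These windows differ widely in composition. The guanine and cytosine content was 72.4% in Lama5, 68.0% in Itgb1, 62.0% in Lamb1, 55.6% in Itga5 and 43.6% in Lamb2. Lama5 held 4 GC boxes, Lamb1 held 2 and a CCAAT box, Itga5 held 2, and Itgb1 held 1 and a TEAD match 7 bases before the start (first base at -7). Over the 12 windows of members that rose, 5 held a GC box (41.7%), against 32.7% of all 32851 RefSeq windows, and 2 held a CCAAT box (16.7%), against 33.8%. A TEAD match stood in 1 of the 12 (8.33%), against 12.6% of all windows. AP-1, cyclic AMP and TATA letters were in 0 of the 12, against 6.75%, 1.55% and 12.4% of all windows. In the 11 windows of 8 tested members that did not pass, 27.3% held a GC box, 9.09% a CCAAT box and 18.2% a TEAD match. Median guanine and cytosine content was 60.2% in the windows of members that rose, 58.8% in those 11 and 52.4% in all windows. The motif shares were not compared at like composition. None of the 6 motifs was in most of the 12 windows of members that rose, and the other members that rose had no window to search. A window without the letters says nothing of the factor.

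Among the 5 laminin alpha genes, Lama4, Lama2 and Lama5 rose after NMDA, and Lama1 and Lama3 did not pass the test. Levels are given as normalised counts, which are reads divided by 1 factor per library and not corrected for gene length, so they compare libraries and not genes. Lama4, an alpha chain of vessel and mesenchymal basement membranes, had 609 and 704 normalised counts in NMDA libraries, against 289 and 263 in DMSO libraries. The groups stood far apart, and the log2 change of 1.24 ± 0.12 (SE) was the largest among all members that rose (limma adjusted p = 0.000698). Lama2, the alpha chain of muscle, Schwann cell and brain vessel laminin, had 424 and 599 in NMDA libraries, against 290.0 and 181 in DMSO libraries. Both groups were spread, without overlap, and Lama2 changed by 1.13 ± 0.23 (adjusted p = 0.00572). Lama5, the alpha chain of many epithelial and vascular basement membranes, had 1377 and 1358 in NMDA libraries, against 749 and 641 in DMSO libraries. Its NMDA libraries nearly coincided, and the log2 change was 0.98 ± 0.10 (adjusted p = 0.000703).

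Lama1, the alpha chain of embryonic and pial basement membranes, was the most scattered of the abundant members. It had 1798 and 6986 normalised counts in NMDA libraries 1 and 2, against 2122 and 3813 in DMSO libraries 1 and 2. The groups overlapped completely, since the NMDA libraries held both the lowest and the highest value, and the change was 0.32 ± 0.52 with a 95% interval of -0.88 to 1.51 (limma adjusted p = 0.656). Leaving out NMDA replicate 1 gave 1.30 (adjusted p = 0.00773), and leaving out NMDA replicate 2 gave -0.66 (adjusted p = 0.103). Between same-numbered libraries the log2 difference was -0.24 for number 1 and 0.87 for number 2. The 12 endoderm and epithelium markers summed to 521 and 1373 normalised counts in NMDA libraries 1 and 2. In DMSO libraries 1 and 2 the sum was 347 and 679. This sum was higher in NMDA library 1 than in DMSO library 1, where Lama1 went the other way. Progenitor, astrocyte and endothelial marker sums were also higher in library 2 than in library 1 of each group, and the other marker sums were not. The part of any of these cell types in the Lama1 values was not tested. Lama3, an alpha chain of epithelial laminins, was low, with 32.5 and 17.8 in NMDA libraries, against 15.3 and 18.0 in DMSO libraries. The groups overlapped and it did not pass (0.52 ± 0.38, adjusted p = 0.303).

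**Figure D1:**
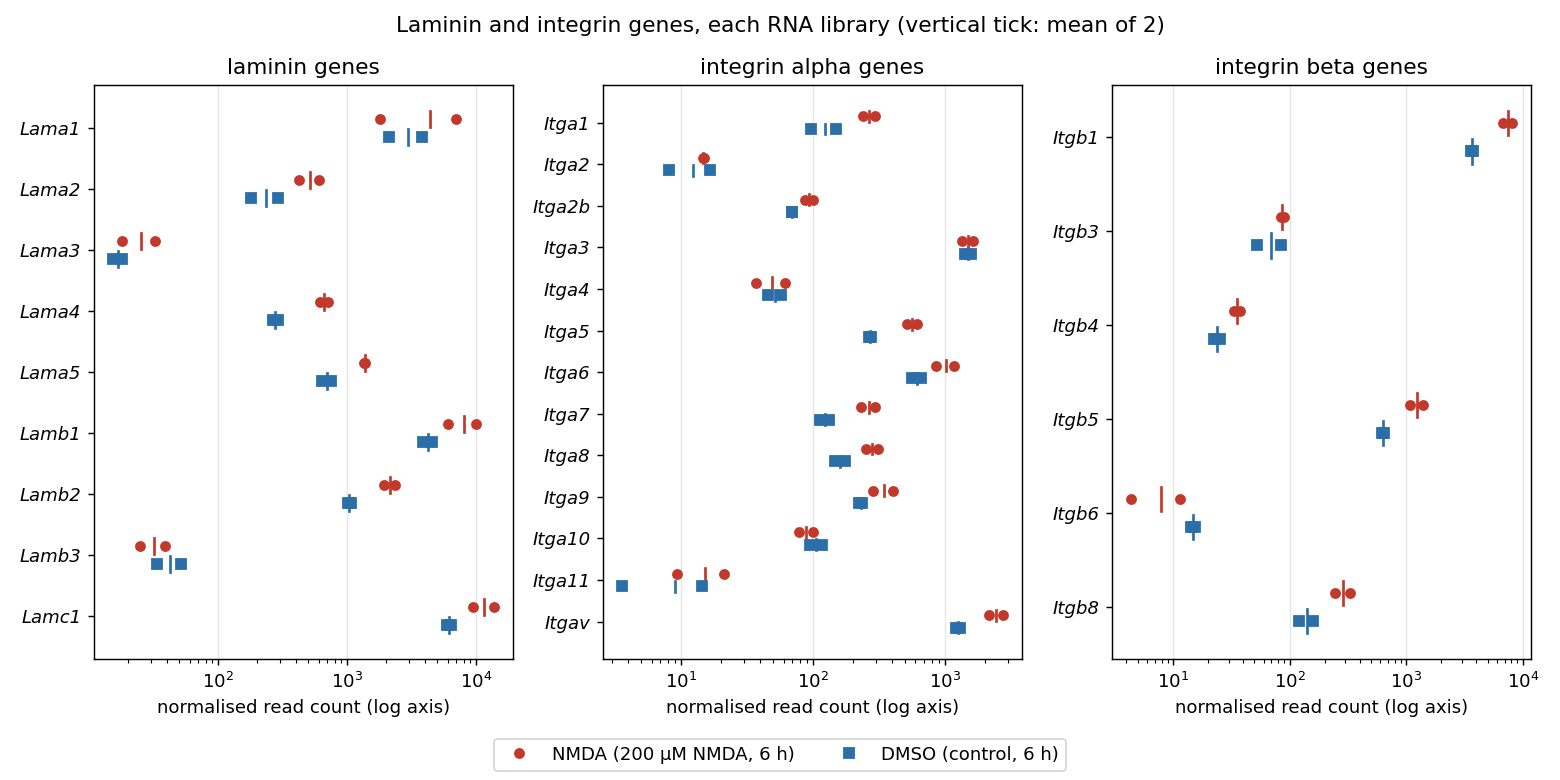
Normalised read count (log axis) of the tested laminin and integrin genes named in the text, in each library, NMDA circles above DMSO squares, with a vertical tick at the mean of 2 libraries. Lamb1, Lamc1 and Itgb1 lie apart between groups, while the Lama1 circles (1798 and 6986) enclose its squares and those of Itga3 overlap.

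Of the beta chains, Lamb1 and Lamb2 rose and Lamb3 did not pass, and the gamma chain gene Lamc1 rose. Lamb1 and Lamc1, which with Lama1 form the classical embryonic laminin, both rose. Lamb1 had 5989.9 and 9997 normalised counts in NMDA libraries, against 3845 and 4539 in DMSO libraries. Both NMDA libraries were above both DMSO libraries, replicate 2 by far more, and the change was 0.89 ± 0.21 (limma adjusted p = 0.00956). It was 0.52 without NMDA replicate 2, and the call was lost without DMSO replicate 1 (adjusted p = 0.104). Lamc1, the gamma chain of most laminins, had 9484 and 13627 in NMDA libraries, against 5889 and 6369.5 in DMSO libraries. It changed by 0.89 ± 0.16 (adjusted p = 0.00294) without overlap, and its call too was lost without DMSO replicate 1 (adjusted p = 0.0517). Lamb2, the beta chain of neuromuscular and vascular laminins, had 1935 and 2349 in NMDA libraries, against 1004 and 1072 in DMSO libraries. This was a tight separation, with a change of 1.04 ± 0.11 (adjusted p = 0.000703).

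Lamb3, a beta chain of epithelial laminins, had 24.6 and 38.8 normalised counts in NMDA libraries, against 33.2 and 51.5 in DMSO libraries, with overlap (-0.41 ± 0.33, limma adjusted p = 0.348). Lamc3, the gamma chain of retina and other nervous tissue, was below the mean of 10 normalised counts needed for a test, with 13 and 4 reads in NMDA libraries, against 2 and 2 in DMSO libraries.

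Integrin alpha subunits that pair with beta 1 to bind laminin did not move alike. Itga7, best known as the laminin receptor subunit of muscle and also made by neurons after injury, had 232 and 298 normalised counts in NMDA libraries, against 114 and 133 in DMSO libraries. It rose by 1.09 ± 0.17 on the log2 scale without overlap (limma adjusted p = 0.0019). Itga6, a laminin receptor subunit of stem cells and radial glia, had 856 and 1183 in NMDA libraries, against 563 and 665 in DMSO libraries. Its rise was 0.72 ± 0.15 (adjusted p = 0.00705), and the call was lost without DMSO replicate 1 (adjusted p = 0.0844). Itga3, a further laminin receptor subunit with a role in cortical neuron migration, had 1632 and 1342 in NMDA libraries, against 1582 and 1415 in DMSO libraries. Here the groups overlapped, with a log2 change of -0.02 and a 95% interval of -0.27 to 0.24 (adjusted p = 0.922). The count ratio of Itga6 to Itga3 was 0.525 and 0.882 in NMDA libraries, against 0.356 and 0.469 in DMSO libraries, higher in both NMDA libraries. An exact permutation test of 2 libraries against 2 cannot give a 2-sided p below 0.333.

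Among the collagen receptor subunits Itga1 rose and Itga2, Itga10 and Itga11 did not pass. Itga1 had 297 and 238 normalised counts in NMDA libraries, against 151 and 97.0 in DMSO libraries. The groups did not overlap, and the change was 1.13 ± 0.22 (limma adjusted p = 0.00451). The gene model of Pelo, a ribosome rescue factor, overlaps that of Itga1, and Pelo had 144 and 135 in NMDA libraries, against 194 and 220.3 in DMSO libraries. The overlap is of whole gene spans, exons were not compared, and the strand setting of the counting is not known here. Whether overlapping genes shared any reads was not tested. Itga10 had 79.0 and 99.7 in NMDA libraries, against 118 and 94.6 in DMSO libraries, and the groups overlapped (-0.25 ± 0.20, adjusted p = 0.352). Itga2 and Itga11 were low, with 3.59 to 21.1 normalised counts over the 4 libraries and overlapping groups (adjusted p = 0.596 and 0.32).

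The subunits that recognise the RGD tripeptide of fibronectin, vitronectin and related ligands include Itgav, Itga5 and Itga8, which rose, and Itga2b, which did not pass. Itgav, the vitronectin receptor subunit that pairs with several beta chains, had 2166 and 2752 normalised counts in NMDA libraries, against 1298 and 1225 in DMSO libraries. It rose by 0.95 ± 0.12 (limma adjusted p = 0.000917), with both NMDA libraries well above both DMSO libraries. Itga5, the fibronectin receptor subunit, had 514 and 614 in NMDA libraries, against 274 and 268 in DMSO libraries. Its change was 1.05 ± 0.12 (adjusted p = 0.000802), and the smallest gap between the groups exceeded the spread of either. Itga8, a receptor subunit for nephronectin and other RGD ligands, had 255 and 310.5 in NMDA libraries, against 175 and 148 in DMSO libraries, and rose by 0.80 ± 0.15 without overlap (adjusted p = 0.00457). Itga2b, the platelet fibrinogen receptor subunit, had 87.8 and 101 in NMDA libraries, against 69.1 and 69.5 in DMSO libraries. It did not overlap but did not pass (0.43 ± 0.18, adjusted p = 0.0911). Of the megakaryocyte and platelet markers, Gp9, Gp6, Pf4 and Ppbp had 0 reads in all 4 libraries and Gata1 had at most 1. Gp1bb had 183 and 180.4 normalised counts in NMDA libraries, against 158 and 188 in DMSO libraries, and Gp1ba had 59.7 and 46.1 in NMDA libraries, against 70.9 and 58.7 in DMSO libraries. Both overlapped between groups and did not pass.

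Itga9 and Itga4 bind tenascin, VCAM1 and alternatively spliced fibronectin. Itga9 had 284 and 405 normalised counts in NMDA libraries, against 237 and 224 in DMSO libraries. Its change of 0.56 ± 0.17 was the smallest among the members that rose (limma adjusted p = 0.0289). The call was lost without DMSO replicate 1 (adjusted p = 0.122), without DMSO replicate 2 (0.144), without NMDA replicate 2 (0.137, with a log2 change of 0.30) and with quantile normalisation (0.0598), under which 18.5% of all tested genes rose and 20.3% fell. Itga4 had 36.9 and 61.9 in NMDA libraries, against 57.5 and 45.5 in DMSO libraries, with overlap (-0.10 ± 0.29, adjusted p = 0.817).

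Of the 8 beta subunits Itgb1, Itgb5 and Itgb8 rose. Itgb1, the shared partner of most alpha subunits, had 6766 and 8080.1 normalised counts in NMDA libraries, against 3756 and 3593 in DMSO libraries. It rose by 1.01 ± 0.10 (limma adjusted p = 0.000703), with a gap between the groups larger than the spread within either. Itgb5, a vitronectin receptor subunit, had 1076 and 1399 in NMDA libraries, against 642 and 622 in DMSO libraries, and rose by 0.96 ± 0.12 without overlap (adjusted p = 0.00113). Itgb8, which with Itgav activates latent TGF-beta and is needed for brain vessel formation, had 246 and 329 in NMDA libraries, against 121 and 160.5 in DMSO libraries. Its rise was 1.02 ± 0.19 (adjusted p = 0.00396), and the call was lost without DMSO replicate 1 (adjusted p = 0.0505). Itgb3, a further vitronectin receptor subunit, had 84.3 and 89.2 in NMDA libraries, against 85.3 and 52.7 in DMSO libraries. The groups overlapped, with a change of 0.37 ± 0.25 (adjusted p = 0.269). The count ratio of Itgav to Itgb1 was 0.320 and 0.341 in NMDA libraries, against 0.346 and 0.341 in DMSO libraries, close together in all 4 libraries although both genes rose.

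Itgb4 and Itgb6, subunits of epithelial integrins, were low. Itgb4 had 33.4 and 37.8 normalised counts in NMDA libraries, against 22.4 and 25.1 in DMSO libraries, without overlap and without passing (0.56 ± 0.28, limma adjusted p = 0.136). Its gene model overlaps that of Galk1, galactokinase, which had 349 and 401 in NMDA libraries, against 263 and 255 in DMSO libraries. Itgb6 was the only tested member higher in both DMSO libraries, with 4.39 and 11.5 in NMDA libraries, against 14.4 and 15.6 in DMSO libraries (-0.96 ± 0.51, adjusted p = 0.162). Without NMDA replicate 2 the change of Itgb6 was -1.57, and without NMDA replicate 1 it was -0.35. The values rest on 5 and 11 reads in NMDA libraries, against 16 and 13 in DMSO libraries.

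The leukocyte integrin genes were at or near the floor. Itgad had 0 reads in all 4 libraries, where a count of 0 allows up to 3 reads per library by counting error alone. Itgal, Itgam, Itgax and Itgb2 had at most 4 reads in any library. Itgae had 8 and 8 reads in NMDA libraries, against 3 and 0 in DMSO libraries, and Itgb7 had 7 and 13, against 11 and 3. None of these 7 reached a mean of 10 normalised counts. The leukocyte markers Tyrobp, C1qa, C1qc and P2ry12 were likewise at 0 reads in every library. The summed level of the 12 genes in that list was 82.5 and 125 normalised counts in NMDA libraries, against 79.9 and 57.5 in DMSO libraries. Cd68 made up most of this sum, with 61.45 and 109.09 in NMDA libraries, against 60.15 and 51.49 in DMSO libraries. It was the only gene of the list that was tested, and it did not pass (limma adjusted p = 0.149).

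**Figure D2:**
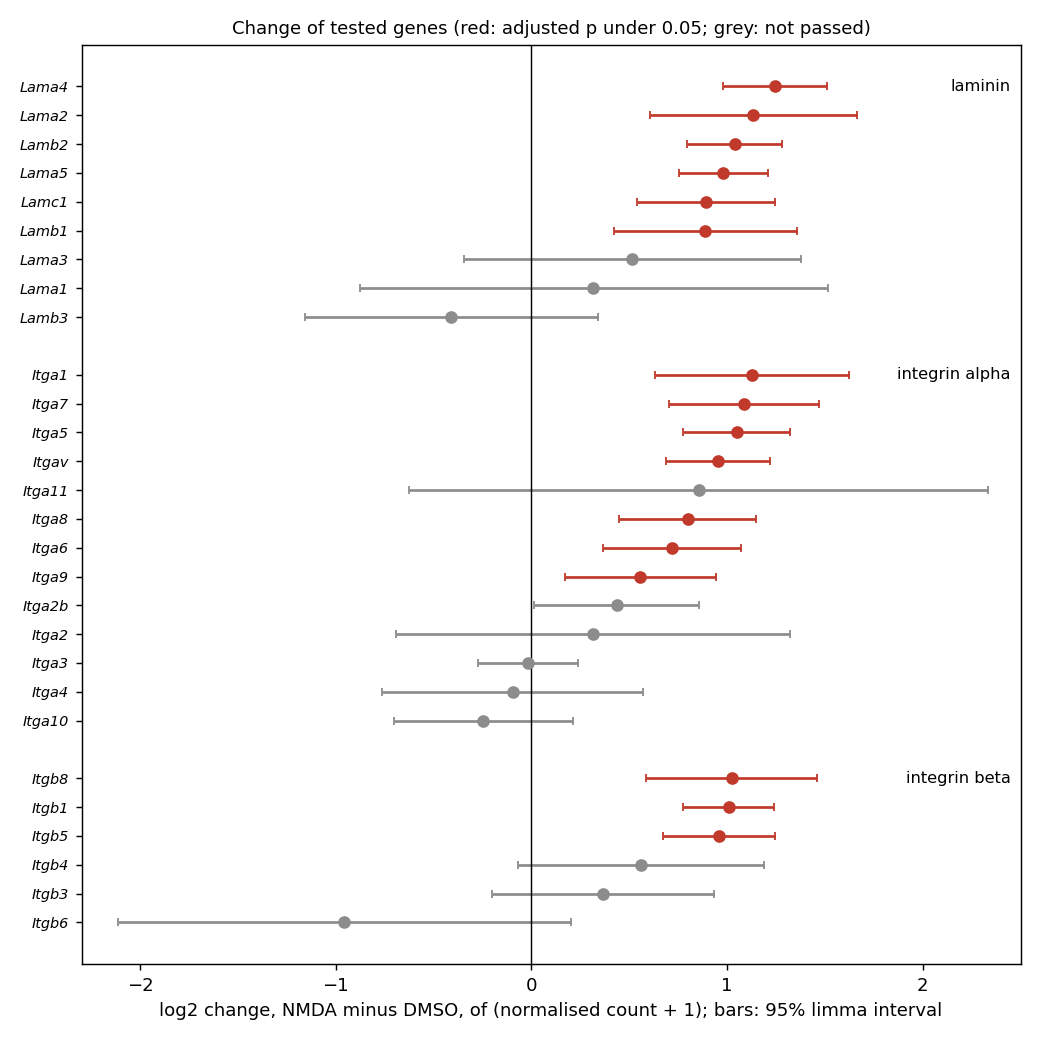
Log2 change (NMDA minus DMSO, on normalised count + 1) of each tested gene named in the text with its 95% limma interval, sorted within laminin, integrin alpha and integrin beta genes, red where the adjusted p was under 0.05. The 16 red points lie between 0.56 (Itga9) and 1.24 (Lama4), and the grey point of Itga3 lies at -0.02.

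In all, 29 of the 37 members reached the mean of 10 and were tested. A total of 16 rose and 13 did not pass: 6 of 10 laminin genes rose, 7 of 13 alpha genes and 3 of 6 beta genes. Across all 13888 genes tested, 20.5% rose and 21.5% fell in the same fit. By limma 0 members fell, with 0 at an unadjusted p under 0.05, against 25.8% of all tested genes, and edgeR and DESeq2 gave 0 as well. Among the rises 8 were at least 2-fold, against 3.56% of all tested genes. NMDA libraries were higher without overlap in 18 of the 29 tested members, against 36.6% of all tested genes, and DMSO libraries in 1, against 37.8%. The median log2 change was 0.89 for laminin genes, 0.72 for alpha genes and 0.76 for beta genes, beside -0.01 for all tested genes. Without DMSO replicate 1 there were 11 rises, since Itga6, Itga9, Itgb8, Lamb1 and Lamc1 were lost, while 7.7% of all tested genes rose and 6.59% fell. With the replicate number as a block, 17 members rose, while 26.5% of all tested genes rose and 27.2% fell. In this bulk RNA, a change in the number of cells of a type and a change in RNA per cell cannot be told apart.

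**Figure D3:**
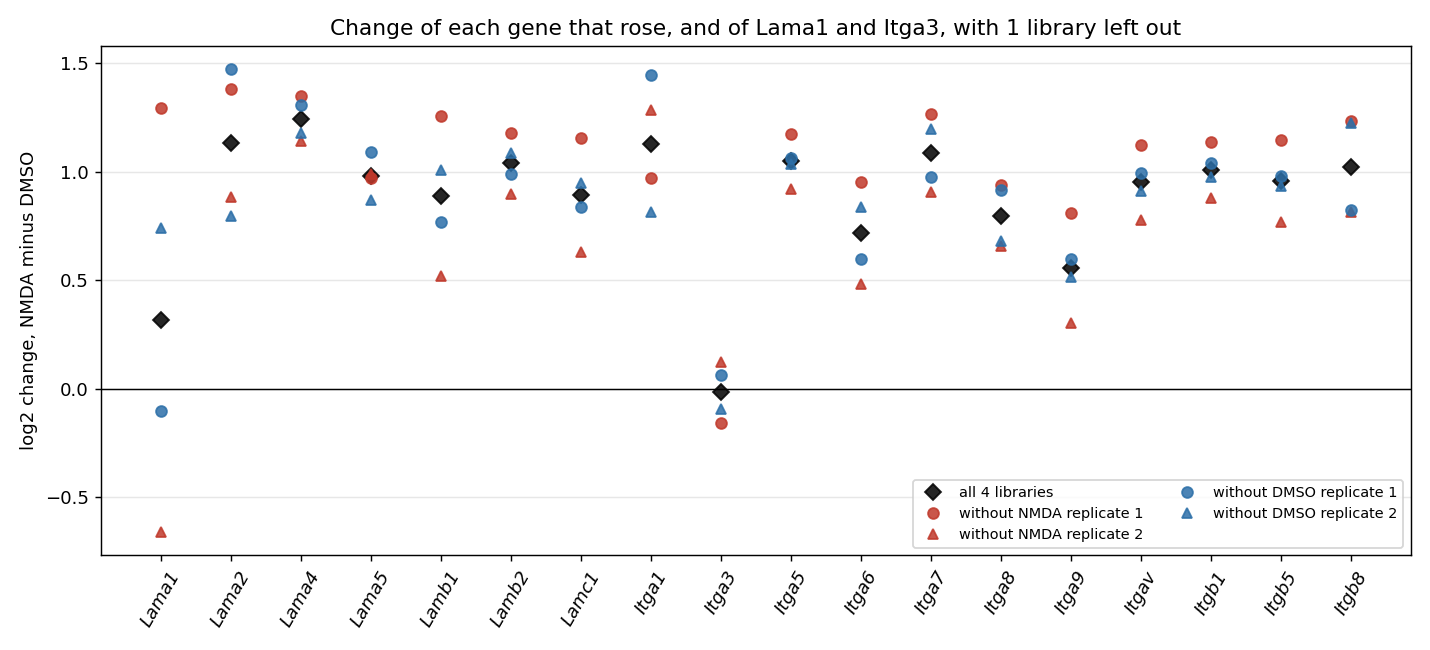
Log2 change (NMDA minus DMSO) of the 16 genes that rose and of Lama1 and Itga3, with all 4 libraries (black diamonds) and with 1 library left out. The 16 genes stay above 0 in each case, lowest for Itga9 without NMDA replicate 2 (0.30), whereas Lama1 runs between -0.66 and 1.30.

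Receptors act as pairs, and 24 alpha and beta combinations are known in mammals. Both subunits were tested for 18 of them and both rose for 9. Of all single genes tested 20.5% rose, and no share of pairs over all genes was computed. Of the 8 RGD-binding pairs 5 had both subunits up, namely Itgav with Itgb1, Itgb5 or Itgb8, and Itgb1 with Itga5 or Itga8. Of the 4 laminin-binding pairs 2 had both up, Itgb1 with Itga6 or Itga7. Of the 4 collagen-binding pairs 1 did, Itga1 with Itgb1, and so did Itga9 with Itgb1. None of the 6 leukocyte pairs had both subunits tested. These pairs share Itgb1 and Itgav many times over and are not independent.

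Other genes of the matrix and adhesion pathway came from lists chosen by function, of which 2 share Npnt, while Postn and Vwf also stand in lists of cell type markers. Among basement membrane partners of laminins 18 of 24 tested genes rose and 6 did not pass, with a median log2 change of 0.95. Of all tested genes 20.5% rose. Nid2, a nidogen that links laminin to collagen IV, had 5146 and 6083 normalised counts in NMDA libraries, against 2635 and 2344 in DMSO libraries, and rose by 1.17 ± 0.11 (limma adjusted p = 0.000698). Its paralog Nid1 rose by 1.04 ± 0.10, and Smoc2, a calcium-binding matrix protein, by 1.08 ± 0.09. Col18a1, the collagen that gives endostatin, rose by 1.09 ± 0.10. These 4 genes were named for the smallest p of the list, so their separation between the groups comes with that choice. Without DMSO replicate 1 there were 11 rises, where 7.7% of all tested genes rose.

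Of 28 other integrin ligands 21 rose and 3 fell, Tnr, L1cam and Edil3 (median 0.98), where 20.5% of all tested genes rose. The matricellular gene Ctgf rose by 2.15 ± 0.16, Tnc, which encodes tenascin C, by 0.98 ± 0.08, and the thrombospondin genes Thbs1 by 1.48 ± 0.14 and Thbs2 by 1.17 ± 0.13, Thbs2, like Tnr, L1cam and Edil3, being named after its values were seen. Tnr, the tenascin of perineuronal nets, had 241 and 253 normalised counts in NMDA libraries, against 465 and 391.6 in DMSO libraries, and fell by 0.79 ± 0.13 (limma adjusted p = 0.00213). A tenascin gene of glia and mesenchyme and one of mature neural matrix changed in opposite directions. The falls numbered 1 without DMSO replicate 1, 1 without DMSO replicate 2 and 1 without NMDA replicate 2, fits in which 6.59%, 10.0% and 17.0% of all tested genes fell, against 21.5% with all libraries.

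Intracellular partners had a lower median change. Of 43 integrin adaptors and signalling genes 16 rose and 6 fell (median 0.27), where 20.5% of all tested genes rose and 21.5% fell. Tln1, the widely expressed talin that links beta tails to actin, had 1598 and 1800.0 normalised counts in NMDA libraries, against 963 and 799 in DMSO libraries, a rise of 0.95 ± 0.11 (limma adjusted p = 0.000825). Its brain-enriched paralog Tln2, named after its values were seen, had 2863 and 2429 in NMDA libraries, against 4174 and 3687 in DMSO libraries, and fell by 0.57 ± 0.11 (adjusted p = 0.00375). The tensin genes Tns3 and Tns1 rose by 0.92 ± 0.11 and 0.77 ± 0.10, and Crkl, a signalling adaptor also named after its values were seen, fell by 0.48 ± 0.08. Without DMSO replicate 1 there were 6 rises and, by limma, 0 falls, where 7.7% of all tested genes rose and 6.59% fell. Without DMSO replicate 2 there were 8 rises and 2 falls, where 10.5% of all tested genes rose and 10.0% fell.

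Among the 22 laminin receptors and receptor-modifying genes outside the integrins, 10 rose and 4 fell (median 0.24). In the same fit 20.5% of all tested genes rose and 21.5% fell. The syndecan genes Sdc2 and Sdc1, which encode heparan sulfate proteoglycans, rose by 1.00 ± 0.10 and 0.88 ± 0.09, and Sgce, a sarcoglycan gene, by 0.53 ± 0.09. Dag1, the dystroglycan gene, chosen after its values were seen, rose by 0.47 ± 0.09 (limma adjusted p = 0.00391). Large, a glycosyltransferase gene that builds the laminin-binding glycan of dystroglycan, also chosen so, fell by 0.43 ± 0.08 (adjusted p = 0.00343). Rises numbered 5 without DMSO replicate 1 and 5 without DMSO replicate 2, and falls 0 (limma) and 2, in fits with the lower shares over all tested genes given above. With DESeq2 on all libraries 2 fell, where 16.7% of all tested genes fell and 16.2% rose. Of 11 tetraspanins and other integrin partners 9 rose (median 0.74), Cd151, the tetraspanin of laminin-binding integrins, by 0.99 ± 0.10 and Cd81 by 0.60 ± 0.09, and 3 rose without DMSO replicate 1.

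**Figure D4:**
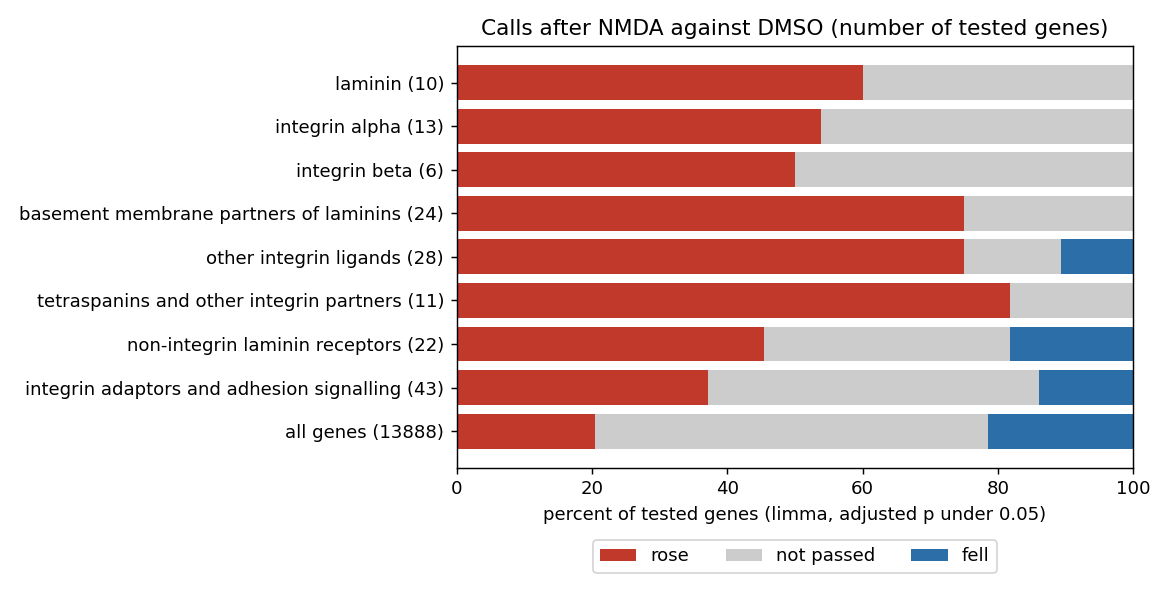
Percent of tested genes that rose (red), did not pass (grey) or fell (blue) after NMDA against DMSO by limma, for the laminin and integrin genes, the related lists and all genes, with the number tested in brackets. Falls appear among adaptors (6 of 43), receptors outside the integrins (4 of 22) and other ligands (3 of 28), and all 13888 genes split into 20.5% rises and 21.5% falls.

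Markers of other cell types were counted in the same libraries. With all libraries 20.5% of all tested genes rose and 21.5% fell. Of 16 fibroblast and mesenchyme markers 15 rose, with a summed level of 216383 and 298582 normalised counts in NMDA libraries, against 118566 and 109924 in DMSO libraries. All 17 neural progenitor and radial glia markers rose, summing to 33153 and 44952 in NMDA libraries, against 18801 and 22295 in DMSO libraries, and 6 rose without DMSO replicate 1. Astrocyte markers gave 5 rises of 7, with sums of 9755 and 13561 in NMDA libraries, against 7969 and 8991 in DMSO libraries, and 1 rise without DMSO replicate 1, 2 without DMSO replicate 2 and 2 without NMDA replicate 2. No marker of these 3 lists was at 0 in all libraries. Over the DMSO mean, NMDA replicates 1 and 2 stood at 1.39 and 2.27 for the laminin sum, 1.80 and 2.18 for the integrin beta sum and 1.89 and 2.61 for the fibroblast sum. In each of these sums NMDA replicate 2 was higher than NMDA replicate 1. A sum follows its most abundant genes. Itgb1 alone gave 6766 and 8080 of the integrin beta sums of 8216 and 9962 in NMDA libraries. Col3a1 alone gave 94091 and 127266 of the fibroblast sums in NMDA libraries. Without Lama1, whose groups overlapped, the laminin sum was 20063 and 28876 normalised counts in NMDA libraries, against 12301 and 13314 in DMSO libraries. Pan-neuronal markers gave 7 falls and 1 rise of 16. Falls numbered 4 without DMSO replicate 1 and 4 without DMSO replicate 2, and the rise was lost without either of these or NMDA replicate 1. Endothelial markers gave 1 rise of 7, with sums of 548 and 872 in NMDA libraries, against 430.04 and 483 in DMSO libraries and Cldn5 at 0. Without overlap 2 of these 7 were higher in NMDA libraries and 2 in DMSO libraries, against 36.6% and 37.8% of all tested genes. Without NMDA replicate 1 there were 3 rises and 1 fall. Endoderm and epithelium markers gave 2 rises of 10, 8 without NMDA replicate 1 and 1 without DMSO replicate 2, and both were lost without DMSO replicate 1 or NMDA replicate 2. Of the megakaryocyte and platelet list 2 genes were tested and neither passed. Over all tested genes 21.8% rose and 24.0% fell without NMDA replicate 1, 14.9% and 17.0% without NMDA replicate 2, 7.7% and 6.59% without DMSO replicate 1, and 10.5% and 10.0% without DMSO replicate 2. The part of these cell types in the laminin and integrin values was not tested.

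**Figure D5:**
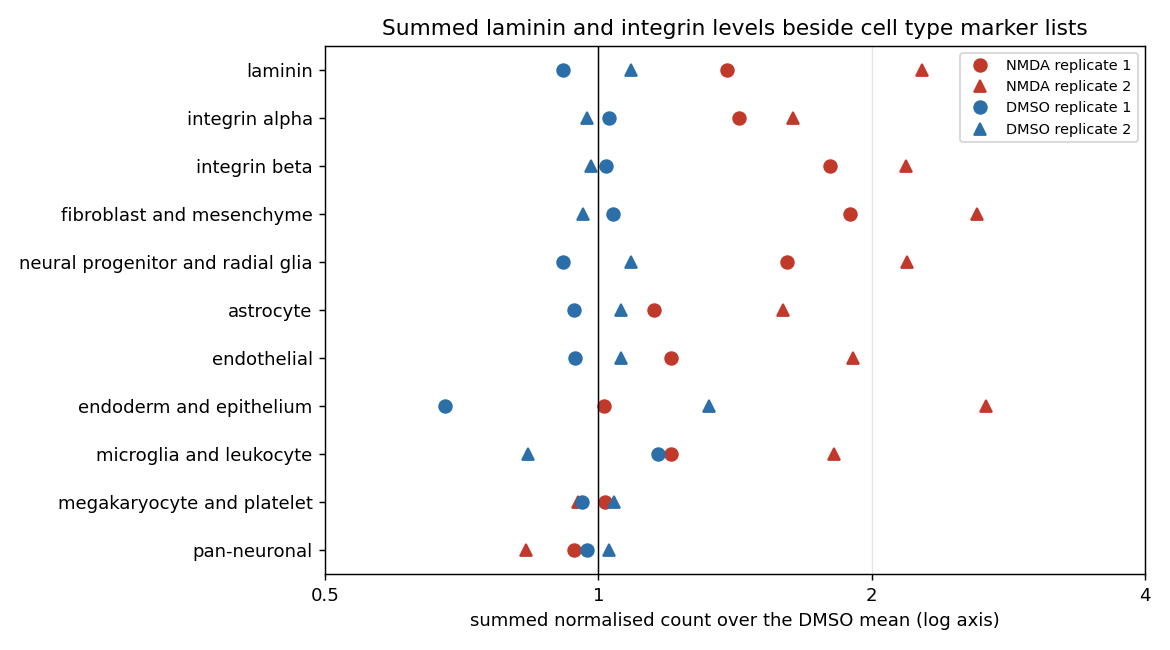
Summed normalised counts of laminin, integrin alpha and integrin beta genes and of each marker list in each library, over the mean of the DMSO libraries (log axis), NMDA in red and DMSO in blue, with circles for replicate 1 and triangles for replicate 2. The laminin sum (1.39 and 2.27 in NMDA libraries) and the fibroblast sum (1.89 and 2.61) are above 1 in both NMDA libraries, and the pan-neuronal sum (0.939 and 0.832) is below 1 in both.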

How the data were processed

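RNA was measured in 2 NMDA and 2 DMSO libraries, grouped by sample title. Per the submitters' processing notes reads were processed with Bowtie, TopHat, HTSeq and DESeq on build mm9; roles, annotation and strand use are unknown here. The authors deposited a signal per gene and library, a normalised read count. Each library's values were multiples of its own step (0.878 to 1.20), which gave back whole reads: 99.98% to 100% of values came out whole within 0.0051. Genes with a mean of at least 10 entered limma-trend on log2(value + 1), using limma 3.58.1 under R 4.3.3, 2-sided, group only, Benjamini-Hochberg adjusted over all 13888 genes, threshold 0.05. This scale understates changes of low genes, and floors cover counting error only, since PCR reads without molecular identifiers are not independent molecules. edgeR 4.0.16 called 2905 rises and 2877 falls on the recovered reads, and DESeq2 1.42.0 called 2249 and 2315. Tested members are named, except 1 that is counted but not reported here. From each related or marker list the 4 genes of smallest p past the threshold could be named, or the 2 of highest mean where none passed, and not all are printed; exceptions are stated. Members and lists were chosen with earlier results of these data known. Col6a3, Map2, Spi1 and Hmcn2 were not analysed here.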

Additional observations from a re-analysis of the deposited data

How the results depend on the processing

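Of 371 values of single members under 13 alternatives, 360 kept their direction or stayed uncalled and their side of the threshold, 8 lost a call and 3 gained one. Rises among members numbered 15 to 17 under the alternatives that kept all libraries, the same 16 genes by edgeR, DESeq2, TMM scaling and pseudocounts of 0.5 and 5. With no filter on low values Itgae also passed. Leaving out 1 library in turn gave 11 to 17 rises and 0 to 1 falls among members by limma (0 falls at an unadjusted p under 0.05 with all libraries, and 0 by edgeR and DESeq2), and 1069 to 3033 rises and 915 to 3334 falls among all genes. The cause was not tested, but these fits have fewer samples. In them the lone library of a group is assumed to vary like the other group. With the replicate block 17 members rose, Lama1 being added (limma adjusted p = 0.000512), and all genes gave 3685 rises and 3782 falls. That fit leaves 1 residual degree of freedom per gene, so its p-values rest mostly on variance pooled over genes. The log2 differences of Lama1 between same-numbered libraries had opposite signs (-0.24 and 0.87), so its call there does not show a rise in both. The labels give the replicate numbers no shared origin. Deviations of same-numbered libraries correlated at 0.34 over 13888 tested genes and 0.53 over the 29 tested members, which are not independent, and 2 pairs do not settle whether the numbers pair the libraries. With 2 libraries per group, Itga10, Itga11, Itga2, Itga4, Itgb3, Itgb4, Itgb6, Lama1, Lama3 and Lamb3 have intervals too wide to tell a rise from a fall.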
